A study of Mus musculus with 12 samples.

Results

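A list of nuclear genes for subunits of oxidative phosphorylation was followed in mouse haploid embryonic stem cells (ESCs) with and without a knockout (KO) of Etl4. The list held 54 genes, and all 54 were found by symbol among the 24421 symbols of both deposited count tables. It was chosen with earlier results of these data known and does not hold every subunit gene. A set of 24 further subunit genes is given below. The list of 54 covers 19 genes of complex I, 4 of complex II, 6 of complex III, 11 of complex IV and 13 of complex V. It also holds Cycs, the gene for cytochrome c. Ndufa4, named for complex I, was placed in complex IV, where its protein is found. All 54 passed the filter on low counts in both tables, so that no gene of the list was lost.

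The study measured mRNA in androgenetic haploid ESCs, whose only chromosome set comes from sperm, and its title concerns a screen in which loss of Etl4 stabilised haploidy. The 12 libraries fall into 5 groups, each on a C57BL/6 background. From the parental line OdG came 2 wild-type (WT) libraries, 2 of an Etl4 KO line here called line 1 and 2 of another called line 2. From the parental line EG1 came 3 WT libraries and 3 of a single Etl4 KO line. The labels describe neither the edit nor the number of clones behind a line, and give no culture condition or passage. They do not say whether replicates were grown apart, and p-values here reflect the scatter among these libraries alone, possibly a technical one.

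Oxidative phosphorylation passes electrons from NADH through complex I, or from succinate through complex II, to ubiquinone. Complex III moves them on to cytochrome c and complex IV to oxygen. Complexes I, III and IV pump protons, and complex V (ATP synthase) uses the proton gradient to make ATP. All complexes but II also contain subunits encoded in mitochondrial DNA. The tables hold 0 mitochondrially encoded genes, and those subunits are not analysed here. Pluripotent stem cells are known to rely strongly on glycolysis, and naive ESCs also respire.

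Libraries held 16110028 to 19706599 counts, of which the 54 genes took 0.941% to 1.07%. Etl4 stood at 206 to 210.2 CPM (counts scaled to library size) in OdG WT, 97.1 to 101 in line 1, 109.6 to 114 in line 2, 259.7 to 265 in EG1 WT and 131 to 133 in EG1 KO. In each table all KO libraries were below all WT libraries. All 12 ESC markers examined had counts in every group. Their summed level was 7746 to 7853 CPM in OdG WT, 8772 to 8824 in line 1, 8296 to 8318 in line 2, 9624 to 9744 in EG1 WT and 9547 to 9762 in EG1 KO, and 11 rose and 1 fell of 12 in line 1 and 9 rose and 1 fell of 12 in line 2. Beside these and the marker calls below, 26.8% of all genes tested were called higher and 26.1% lower in line 1. In line 2 those shares were 30% and 29.8%. Summed feeder (fibroblast) markers stepped down across OdG, from 95.2 to 100.3 CPM in WT to 62.9 to 64.02 in line 1 and 35.5 to 38.9 in line 2, against 29.9 to 31.5 in EG1 WT and 30.3 to 33.7 in EG1 KO. Of the 12 feeder markers, 6 passed the filter in OdG, of which 3 were called lower in line 1 and 4 in line 2. The number of these 12 without any count was 0 in OdG WT, 3 in line 1, 0 in line 2, 4 in EG1 WT and 5 in EG1 KO. Summed markers of primitive endoderm, an early differentiated lineage, were at 948 to 980.2 CPM in OdG WT, 820.4 to 828 in line 1 and 530.3 to 539.5 in line 2, with 0 of 10 genes at 0 counts. In EG1 that sum was 866.4 to 870.1 CPM in WT and higher in KO, at 914.4 to 954. Of 9 endoderm genes tested in OdG, 3 were called lower in line 1 and 4 in line 2, and 0 higher in either. Summed trophoblast markers were higher in the OdG lines, at 233.7 to 236.1 CPM in WT, 316.9 to 319.1 in line 1 and 272.7 to 287.9 in line 2. Of 7 trophoblast genes tested in OdG, 4 rose and 2 fell in line 1, and 1 rose and 4 fell in line 2. The part of these marker changes in the results below was not tested. In bulk RNA a change in the mix of cells and a change of RNA within each cell cannot be told apart.

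The 2 OdG WT libraries differed from each other in these genes, and every OdG comparison with WT rests on them. The median subunit gene was lower in WT replicate 1 than in replicate 2, with a log2 difference of -0.11 (replicate 1 minus replicate 2), and 9 of 54 were higher in replicate 1. The same pair differed by transcript length. Over all coding genes with transcripts under 700 nt the median difference was -0.12 (359 genes), against 0.014 at 1500 nt and over (10877 genes). EG1 WT replicate 2 stood below EG1 WT replicate 3 in the same manner, with a median difference (replicate 2 minus replicate 3) of -0.10 for the short transcripts. Results are therefore given with and without single libraries where that matters.

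In line 1, 32 of 54 subunit genes rose against OdG WT and 0 fell, by edgeR's quasi-likelihood test at an adjusted p (Benjamini-Hochberg) under 0.05 over 14413 genes. Over all genes tested 26.8% were called higher and 26.1% lower in that comparison. In line 2, 22 rose and 8 fell, against 30% and 29.8% of all genes. In EG1 KO, 1 rose and 0 fell, against 3.6% and 4.06% of all genes. The whole EG1 comparison called 505 genes higher and 569 lower, which became 332 and 698 with libraries scaled by their totals. The median log2 fold change of the 54 genes was 0.16 in line 1, 0.074 in line 2 and 0.021 in EG1 KO, beside -0.0073, -0.0088 and -0.0013 for all genes tested. Line 1 and line 2 share the same WT libraries, so their values are given side by side and one does not support the other. The line 1 rise was also seen, smaller, over short transcripts in general. Over all coding genes tested the line 1 median was 0.091 under 700 nt and -0.016 at 1500 nt and over, against 0.19 for 21 and 0.11 for 14 subunit genes of those lengths. The part of length in these values was not tested. Without WT replicate 1 the counts were 28 higher and 1 lower in line 1 and 16 higher and 11 lower in line 2. Without WT replicate 2 they were 43 and 0 in line 1 and 31 and 5 in line 2. The number lower in line 2 was also 5 when either line 2 library was left out. With all libraries kept, scaling by the upper quartile or by totals gave 25 higher and 1 lower in line 1.

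**Figure D1:**
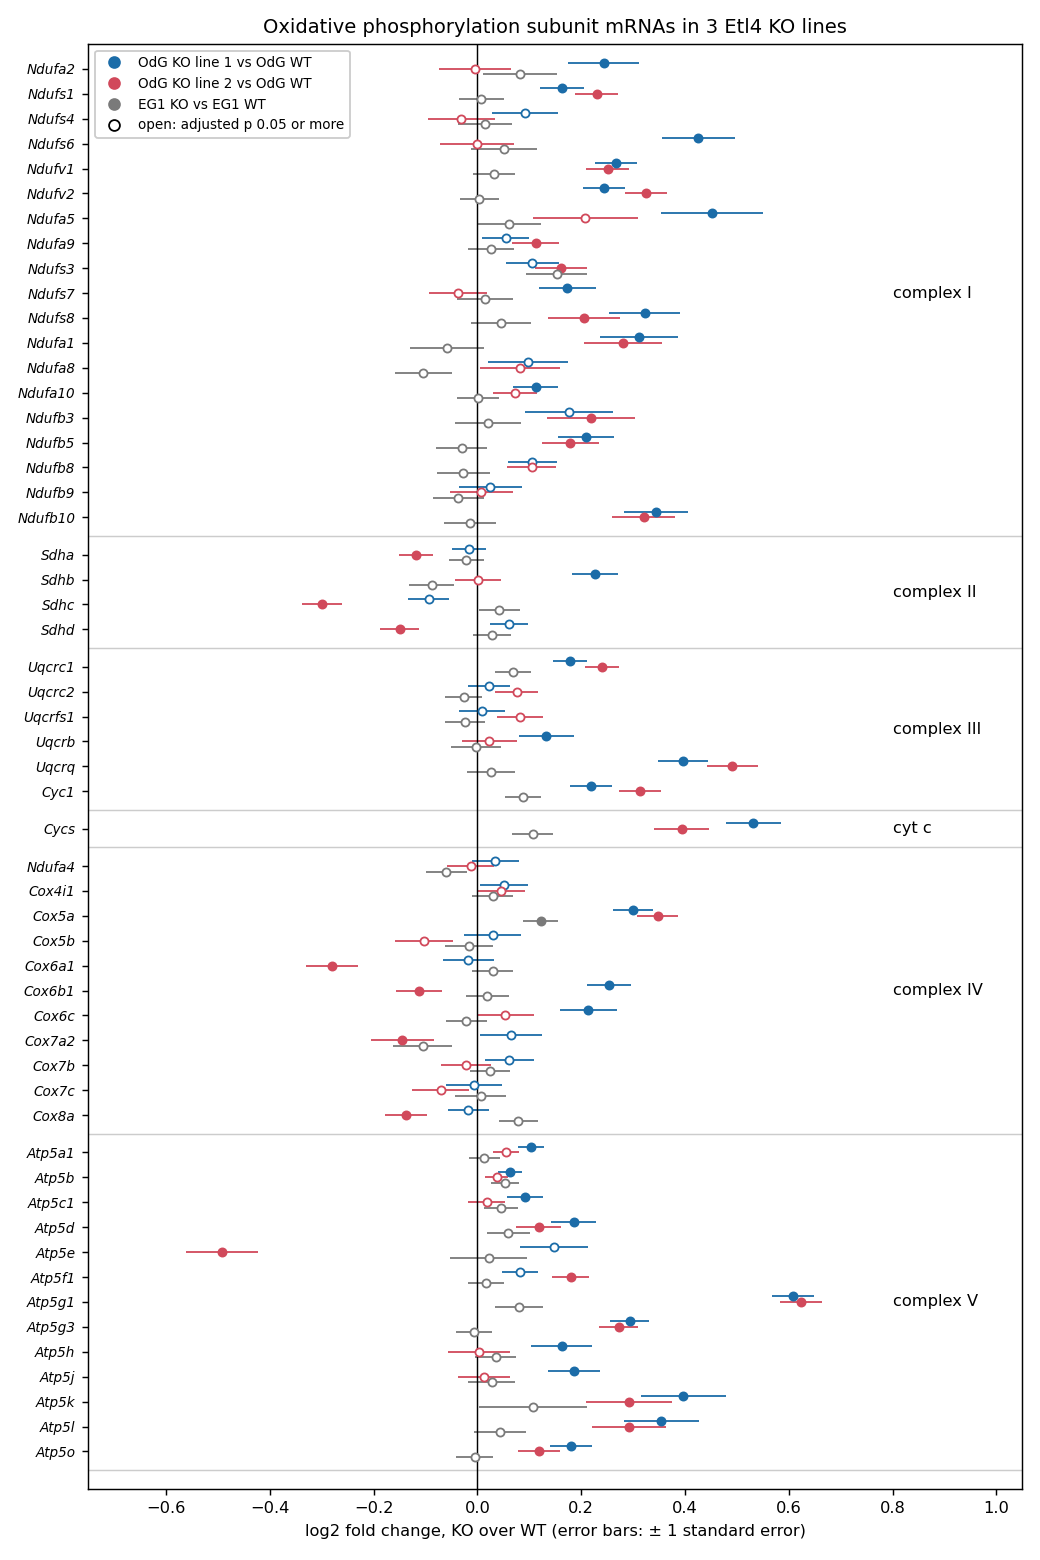
Log2 fold change of each of the 54 subunit genes (rows, grouped by complex) in line 1 and line 2 against OdG WT and in EG1 KO against EG1 WT, with bars of ± 1 standard error and filled points for calls at adjusted p under 0.05. Most EG1 points lie close to 0, the called points of complexes I, III and V in the OdG lines lie to the right of 0 except Atp5e in line 2, and the other called points to the left are line 2 points of complexes II and IV.

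Complex I, the entry point for electrons from NADH, rose in 12 of its 19 listed genes in line 1 and 10 of 19 in line 2. None of the 19 was called lower in either line, and 0 were called in EG1 KO. Over all genes tested, 26.8% were called higher in line 1 and 30% in line 2. Complex I medians were 0.18 in line 1, 0.16 in line 2 and 0.014 in EG1 KO. Without WT replicate 1 the line 2 median was 0.0666, without WT replicate 2 the line 1 median was 0.27, and with upper-quartile scaling the line 1 median was 0.12. In the N module, where NADH is oxidised, 5 of 6 listed genes rose in line 1 and 3 of 6 in line 2. Ndufv3, a gene of that module outside the list, fell in each line and is given below. Ndufv2, an iron-sulfur subunit of that module, stood at 125 and 132 CPM in OdG WT, 149.9 and 154 in line 1 and 163 and 159 in line 2, with every KO library above both WT libraries (log2 0.24 ± 0.041, adjusted p = 8.6e-05 in line 1 and 0.32 ± 0.041, adjusted p = 2.7e-06 in line 2). In EG1 it was at 161, 154 and 163 CPM in WT and 156, 166 and 158 in KO, where the groups overlapped. Ndufv1, which binds the NADH and flavin, and Ndufs1, the largest iron-sulfur subunit, showed log2 0.27 and 0.16 in line 1 and 0.25 and 0.23 in line 2, all called.

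Ndufa5, an accessory subunit of the Q module, had the largest rise of complex I in line 1. It held 22.3 and 28.95 CPM in WT, 34.03 and 36.1 in line 1 and 30.8 and 28.3 in line 2 (log2 0.45 ± 0.099, adjusted p = 0.00093 in line 1; 0.21 ± 0.1, adjusted p = 0.086 in line 2). Both line 1 libraries lay above both WT libraries, while line 2 replicate 2 lay below WT replicate 2. The EG1 libraries held 33.3, 33.5 and 33.9 CPM in WT and 34.1, 37.4 and 33.5 in KO. In the membrane arm, which carries the proton pumps, 4 of 8 listed genes rose in line 1 and 4 of 8 in line 2. Among them the accessory subunit genes Ndufb10 and Ndufa1 showed log2 0.34 and 0.31 in line 1 and 0.32 and 0.28 in line 2. Ndufs4, Ndufa8, Ndufb8 and Ndufb9 passed in neither line, with values of 0.0075 to 0.11 apart from Ndufs4 in line 2 (-0.031).

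Ndufs6, a zinc-binding accessory subunit of the N module, was singled out after its values were seen because the KO lines parted there. It stood at 35.2 and 39.6 CPM in WT, 50.8 and 49.6 in line 1 and 38.2 and 36.5 in line 2. Line 1 lay above the other 4 OdG libraries, and line 2 lay between the WT libraries. The line 2 minus line 1 difference was log2 -0.43 ± 0.07, adjusted p = 0.00011. Ndufa2 (-0.25 ± 0.068, adjusted p = 0.0082) and Ndufs7 (-0.21 ± 0.054, adjusted p = 0.0054), the latter a carrier of the last iron-sulfur cluster before ubiquinone, were also lower in line 2 than in line 1. Exons of Ndufs6 overlap Mrpl36 on the other strand and those of Ndufa2 overlap Tmco6. Further genes of the list have such overlaps on the other strand, among them Ndufs1 (Eef1b2 and Ino80dos), Ndufb5 (Mrpl47), Cox5a (Gm26631) and Atp5l (Gm30934). The strand setting of the counting is not given in the sources used here, so reads of overlapping partners cannot be told apart.

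Complex II, the succinate dehydrogenase shared with the citric acid cycle, was lower in line 2 in all but 1 of its genes. In line 1, 1 of 4 genes rose and 0 fell (median 0.022, but -0.0384 with upper-quartile scaling and -0.0377 by totals). In line 2, 0 rose and 3 fell (median -0.13), and in EG1 KO 0 were called (median 0.0036). The line 1 share called higher (25%) was near that of all genes tested (26.8%). The line 2 share called lower was 75% of 4 genes, against 29.8% of all genes. Sdhc (chromosome 1, 171127165 to 171150603, minus strand, mm10), one of the membrane anchors, held 123 and 125 CPM in WT, 116 and 116 in line 1 and 99.9 and 102 in line 2. Line 2 lay below all other OdG libraries (log2 -0.30 ± 0.039, adjusted p = 4.2e-06), and line 1 lay below WT without passing (-0.094 ± 0.039, adjusted p = 0.051). EG1 WT held 109, 109 and 111 CPM and EG1 KO 112, 116 and 111. Those groups did not overlap, with KO slightly higher, but the gene did not pass (0.042 ± 0.04, adjusted p = 0.6). Sdhd, the other anchor, and Sdha, the flavoprotein that oxidises succinate, fell in line 2 by smaller amounts (-0.15 ± 0.037 and -0.12 ± 0.033). Sdhb, the iron-sulfur subunit, held 76.3 and 78.6 CPM in WT, 90.4 and 90.7 in line 1 and 77.9 and 77.01 in line 2. It rose in line 1 (log2 0.23 ± 0.044, adjusted p = 0.00035) and was at 0.0012 ± 0.045, adjusted p = 0.98 in line 2. In EG1 it was at 95, 89.9 and 92.6 CPM in WT and 87.1, 90.4 and 83.7 in KO, and the groups overlapped.

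Complex III, the cytochrome bc1 complex, rose in 4 of 6 genes in line 1 and 3 of 6 in line 2, with medians of 0.16 and 0.16 and 0.012 in EG1 KO (0 called). Those shares were 66.7% and 50%, against 26.8% and 30% of all genes tested. With upper-quartile scaling the line 1 median was 0.0954. Uqcrq, a small subunit near the ubiquinone site, held 74.9 and 82.5 CPM in WT, 105 and 102 in line 1 and 109 and 112 in line 2. All 4 OdG KO libraries lay above both WT libraries (log2 0.40 ± 0.049, adjusted p = 2.8e-06 in line 1 and 0.49 ± 0.049, adjusted p = 1.3e-07 in line 2). EG1 WT held 129.6, 114 and 117 CPM and EG1 KO 123, 129.5 and 115, all above the OdG libraries, although the tables were scaled separately. Cyc1, the cytochrome c1 haem protein, and the core protein gene Uqcrc1 showed log2 0.22 and 0.18 in line 1 and 0.31 and 0.24 in line 2, all called. Uqcrfs1, the Rieske iron-sulfur protein gene, and Uqcrc2 passed in neither line (0.0092 to 0.082 for Uqcrfs1).

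Cycs (chromosome 6, 50562563 to 50566538, minus strand) encodes cytochrome c, the carrier between complexes III and IV and a trigger of apoptosis when released from mitochondria. It held 79.4 and 91.5 CPM in OdG WT, 125 and 122 in line 1 and 110.4 and 114 in line 2. Each KO library exceeded both WT libraries, with log2 0.53 ± 0.053, adjusted p = 2.2e-07 in line 1 and 0.39 ± 0.054, adjusted p = 6.4e-06 in line 2. In EG1 it was at 115, 112 and 116 CPM in WT and 123, 122 and 125 in KO. There the groups did not overlap either, but the gene did not pass over all genes (log2 0.11 ± 0.039, adjusted p = 0.096). The genome holds processed copies of Cycs and of several small subunit genes, and how the authors treated reads that match more than 1 place is not given in the sources used here.

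Complex IV, cytochrome c oxidase, showed calls in both directions. In line 1, 3 of 11 genes rose and 0 fell (median 0.052). In line 2, 1 rose and 4 fell (median -0.071). The line 1 share called higher (27.3%) was near that of all genes tested (26.8%). In line 2, 36.4% were called lower against 29.8% of all genes, and 9.09% higher against 30%. The sign of the complex IV medians was not stable. Without WT replicate 1 they were -0.0275 in line 1 and -0.16 in line 2, and without WT replicate 2 0.14 and 0.0312. Without line 2 replicate 2 the line 2 median was -0.0031. With all libraries kept, the line 1 median was also below 0 with upper-quartile scaling (-0.0086) and by totals (-0.0077). Cox5a, a matrix-side subunit, was the one complex IV gene called higher in line 2. It held 210.5 and 221 CPM in WT, 264 and 267 in line 1 and 282 and 267 in line 2 (log2 0.30 ± 0.039, adjusted p = 4.7e-06 and 0.35 ± 0.039, adjusted p = 6e-07). Cox5a was also the only gene of the list called in EG1, at 269, 267 and 261 CPM in WT and 285, 289.8 and 293 in KO with no overlap (log2 0.12 ± 0.034, adjusted p = 0.02). That EG1 call held in 8 of 13 alternative analyses. It was lost when any one of EG1 WT replicates 1, 2 and 3 or EG1 KO replicate 3 was left out, and with libraries scaled by their totals.

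Cox6a1 held 199 and 228 CPM in WT, 214 and 208 in line 1 and 178 and 174 in line 2. Line 2 lay below the other OdG libraries (log2 -0.28 ± 0.05, adjusted p = 0.00011), and line 1 lay between the WT libraries (-0.018 ± 0.049, adjusted p = 0.79). EG1 WT held 209.7, 192 and 208 CPM and EG1 KO 217, 203 and 203, which overlapped. Cox6b1, which links the monomers of the enzyme on the intermembrane side, was called higher in line 1 and lower in line 2, and was singled out for that after its values were seen. It stood at 105 and 113 CPM in WT, 129 and 131 in line 1 and 100.2 and 101 in line 2 (log2 0.25 ± 0.043, adjusted p = 7.9e-05 and -0.11 ± 0.044, adjusted p = 0.035). Both line 2 libraries lay below both WT libraries. The call in line 2 held in 7 of 14 alternative analyses. Cox8a and Cox7a2 also fell in line 2 (-0.14 ± 0.04, adjusted p = 0.0064 and -0.14 ± 0.06, adjusted p = 0.048), and the Cox7a2 call held in only 5 of 14 alternative analyses. Ndufa4, Cox4i1, Cox5b, Cox7b and Cox7c passed in neither line.

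Complex V rose in 11 of 13 genes in line 1 and 7 in line 2, where 1 fell, with medians of 0.18, 0.12 and, in EG1 KO, 0.035 (0 called). The shares called higher were 84.6% in line 1 and 53.8% in line 2, against 26.8% and 30% of all genes tested. Without WT replicate 1 the medians were 0.12 in line 1 and 0.077 in line 2, and without line 2 replicate 1 the line 2 median was 0.0765. With upper-quartile scaling the line 1 median was 0.12. The genes were split into those of the F1 part, which is the catalytic head with its central stalk, and those of the membrane part and peripheral stalk. Of the 8 genes for the membrane part and peripheral stalk, 7 rose in line 1 (median 0.24) and 6 in line 2 (0.23). Of the 5 F1 genes, 4 rose in line 1 (median 0.10), and in line 2 1 rose and 1 fell (0.037). The most abundant genes of the list, Atp5b and Atp5a1 for the catalytic head, showed log2 0.063 and 0.10 in line 1 (both called) and 0.037 and 0.055 in line 2 (not called). In line 1 the Atp5b call held in 6 of 14 alternative analyses and that of Atp5a1 in 12. Atp5k and Atp5l, for the small membrane subunits e and g, showed log2 0.40 and 0.35 in line 1 and 0.29 and 0.29 in line 2, all called. Atp5o, for the peripheral stalk protein OSCP, was at 0.18 and 0.12, both called, but its exons overlap Donson on the same strand.

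The fall in complex V was at Atp5e (chromosome 2, 174461072 to 174464105, minus strand), the gene for the epsilon subunit of the F1 central stalk. It held 51.8 and 59.5 CPM in WT, 61.2 and 62.1 in line 1 and 41.1 and 38.1 in line 2. Line 2 was lowest of all OdG libraries (log2 -0.49 ± 0.069, adjusted p = 9.4e-06), and line 1 was slightly above WT without passing (0.15 ± 0.066, adjusted p = 0.068). EG1 WT held 73.8, 54 and 63.6 CPM and EG1 KO 64.4, 72.5 and 57.4, so the spread within EG1 WT alone covered both groups. The line 2 minus line 1 difference of log2 -0.64 ± 0.069, adjusted p = 1e-06 was the largest of the 54 genes.

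Atp5g1 (chromosome 11, 96068852 to 96075670, minus strand) showed the largest rise of the list in line 1 and in line 2. It is one of 3 genes, with Atp5g2 and Atp5g3, that encode subunit c, the protein that forms the proton-turned ring of ATP synthase. Their precursors differ in the leader that targets them to mitochondria. Computed from the GENCODE transcripts, the last 75 codons of the 3 genes encode the same amino acids (0 differences), while the bases differ from Atp5g1 at 34 of 228 positions in Atp5g2 (85.1% identity) and at 46 in Atp5g3 (79.8%). The longest identical stretch shared with Atp5g1 is 21 bases in Atp5g2 and 11 in Atp5g3. These coding ends, with the stop codon, are shown because they bear on how well reads can be assigned among the 3 genes. They are written 5′ to 3′ on the strand of the gene, and capitals mark in Atp5g1 the bases that differ from Atp5g3, and in the other 2 genes the bases that differ from Atp5g1.
Atp5g1: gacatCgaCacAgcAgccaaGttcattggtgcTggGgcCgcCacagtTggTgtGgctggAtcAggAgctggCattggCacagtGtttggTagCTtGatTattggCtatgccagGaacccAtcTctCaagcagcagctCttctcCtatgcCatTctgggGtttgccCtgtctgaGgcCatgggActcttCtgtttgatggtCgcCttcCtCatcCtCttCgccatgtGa
Atp5g2: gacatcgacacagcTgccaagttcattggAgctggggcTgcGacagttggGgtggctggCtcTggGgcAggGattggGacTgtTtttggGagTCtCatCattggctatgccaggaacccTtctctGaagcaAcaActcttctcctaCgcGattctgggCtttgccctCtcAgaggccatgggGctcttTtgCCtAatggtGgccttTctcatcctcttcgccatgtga
Atp5g3: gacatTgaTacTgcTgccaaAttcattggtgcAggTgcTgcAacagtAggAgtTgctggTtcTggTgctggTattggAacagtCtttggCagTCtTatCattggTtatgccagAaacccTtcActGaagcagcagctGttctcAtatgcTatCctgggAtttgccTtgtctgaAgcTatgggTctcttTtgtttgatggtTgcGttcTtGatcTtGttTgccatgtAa

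Atp5g1 held 89.7 and 86.9 CPM in OdG WT, 134 and 135 in line 1 and 137 and 135 in line 2. The 4 KO libraries lay close together and far above WT (log2 0.61 ± 0.04, adjusted p = 1.3e-09 in line 1 and 0.62 ± 0.04, adjusted p = 5.2e-10 in line 2). EG1 WT held 165, 138 and 158 CPM and EG1 KO 168, 159 and 161, all above the 6 OdG libraries, and EG1 KO was not called (0.08 ± 0.047, adjusted p = 0.34). Atp5g3 held 243 and 254 CPM in OdG WT, 303 and 305 in line 1 and 308 and 292 in line 2 (log2 0.29 ± 0.037, adjusted p = 3.9e-06 and 0.27 ± 0.037, adjusted p = 7e-06). In EG1 it was at 319, 299.9 and 317 CPM in WT and 319.5, 310.2 and 302 in KO, which overlapped. Atp5g2, which is not on the list of 54, held 137 and 147 CPM in OdG WT, 136 and 137 in line 1 and 127 and 132 in line 2, and was not higher in any OdG KO library than in WT replicate 2. Per kb of transcript, Atp5g1 made up 18.1% ± 0.94 of the subunit c mRNA of the 3 genes in OdG WT, 23.5% ± 0.0045 in line 1 and 24.2% ± 0.023 in line 2 (mean ± SD, n = 2 each). Atp5g2 made up 39.3% ± 0.83, 32.2% ± 0.021 and 31.2% ± 1.1 in the same order. In EG1 the Atp5g1 share was 24.1% ± 1.2 in WT and 24.9% ± 0.28 in KO (n = 3 each). A share within the 3 genes does not depend on how libraries are scaled.

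**Figure D2:**
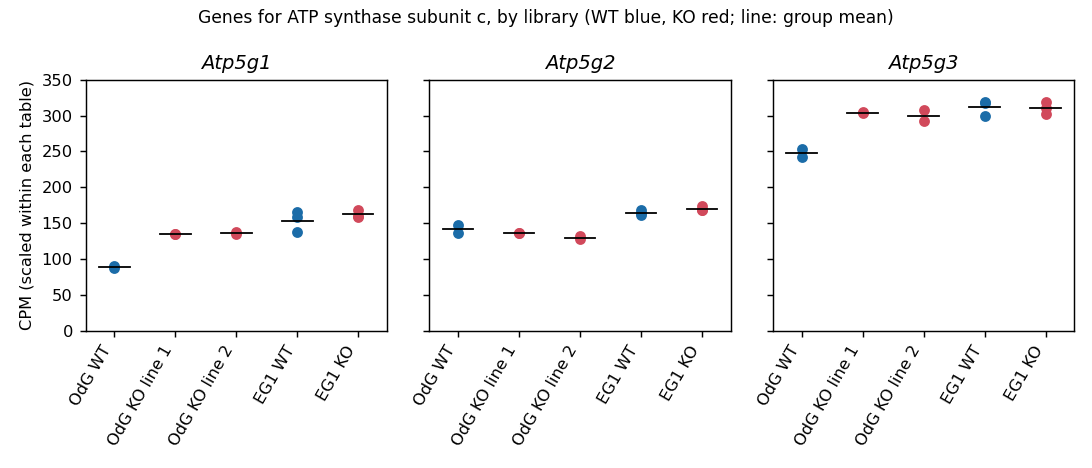
CPM of Atp5g1, Atp5g2 and Atp5g3 in every library (points; WT blue, KO red) with the group mean as a line, CPM being scaled within each table. The OdG WT points of Atp5g1 (89.7 and 86.9 CPM) lie below all other Atp5g1 points, and those of Atp5g3 below all other Atp5g3 points, while Atp5g2 shows no such gap.

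The complexes were also compared within each library, which removes the effect of scaling but not that of transcript length. Complex II, the reference, has longer transcripts (median 2065.5 nt) than complexes I (861 nt) and IV (618 nt). The part of length in these gaps was not tested. For each complex the median over its genes of log2 CPM minus the mean of the WT libraries was taken. The complex I median minus that of complex II was -0.057 and 0.057 in the OdG WT libraries, 0.19 and 0.18 in line 1 and 0.29 and 0.27 in line 2. In this gap every KO library lay above both WT libraries, and line 2 above line 1. Complex I alone was not higher in line 2, at 0.22 and 0.19 in line 1 and 0.16 and 0.14 in line 2. Complex II was at 0.033 and 0.011 in line 1 and -0.14 and -0.13 in line 2. The order of the lines therefore came from complex II. In EG1 the complex I minus complex II gap was 0.043, -0.032 and 0.0029 in WT and 0.03, 0.019 and -0.006 in KO, which overlapped. Complex III minus complex II was -0.054 and 0.054 in OdG WT, 0.11 and 0.16 in line 1 and 0.31 and 0.30 in line 2, with the same order. Complex III alone was at 0.14 and 0.17 in line 1 and 0.17 and 0.17 in line 2. Complex IV minus complex II was -0.094 and 0.094 in OdG WT, 0.044 and 0.019 in line 1 and 0.13 and 0.026 in line 2, where 3 of 4 KO libraries fell between the WT libraries. No test was run on these values.

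**Figure D3:**
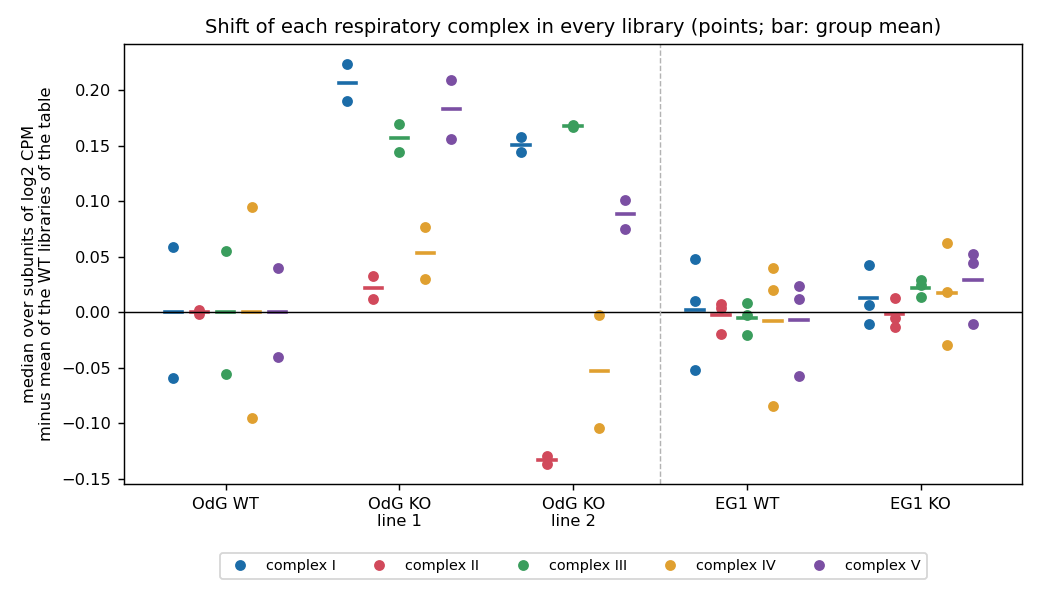
Shift of each complex in every library, as the median over its subunit genes of log2 CPM minus the mean of the WT libraries of the same table, with a bar at the group mean. Complexes I, III and V lie above 0 in all 4 OdG KO libraries, complex II lies at -0.14 and -0.13 in line 2, and the EG1 KO points overlap the EG1 WT points except for complex III.

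The levels of the complexes per kb of transcript kept one order in all 5 groups. The median subunit gene was highest in complex IV, followed by V, III, II and I. In OdG WT the group medians were 292 ± 20 CPM per kb for complex IV, 176 ± 5.6 for V, 132 ± 3 for III, 98.1 ± 0.2 for II and 61.7 ± 3.2 for I (mean ± SD, n = 2). Neighbours in that order were farther apart than these SDs, which measure scatter of the median between libraries and not among genes. Single genes of neighbouring complexes overlapped. In OdG WT, complex II ran from 39.1 (Sdhc) to 139.8 (Sdha) CPM per kb and complex III from 91.2 (Uqcrfs1) to 194.3 (Uqcrq). Cycs was at 27.4 ± 2.7 CPM per kb, below the median of every complex, but it has a long transcript. Complex V genes supplied 38.5% to 39.9% of the summed CPM per kb of the 54 genes, over the group means. Complex II supplied 4.22% ± 0.23 in OdG WT, 3.94% ± 0.014 in line 1 and 3.67% ± 0.056 in line 2.

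Line 2 was then compared with line 1 directly. Of 54 genes 1 was higher in line 2 and 16 were lower, against 18.6% and 19.2% of all genes tested. Scaling by the upper quartile or by library totals changed this to 5 higher and 11 lower. The genes lower in line 2 were all 4 of complex II, 5 of 11 in complex IV, 3 of 19 in complex I, 3 of 13 in complex V and Cycs. Complex III had 0 calls (median 0.067). The complex II median was -0.17 and -0.18 by those scalings, beside -0.21. Atp5f1, for the peripheral stalk, was the gene higher in line 2 (0.098 ± 0.035, adjusted p = 0.034; held in 8 of 14 alternative analyses), but its exons overlap Wdr77 on the other strand. DESeq2 called 0 higher and 9 lower. The number lower was 8 without line 1 replicate 1 or line 2 replicate 2 and 9 without line 2 replicate 1, with 0 higher in each case.

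Transcript length moved with this difference. Of the 21 subunit genes with transcripts under 700 nt, 10 were lower in line 2 (median -0.11), and over all 359 coding genes of that length 93 were lower and 42 higher (median -0.077). Among the 14 subunit genes of 1500 nt and over, 3 were lower and 1 higher (median -0.021), beside 0.0086 for 10877 coding genes. Complex IV transcripts are short (median 618 nt), while those of complex II run from 1142 to 3171 nt. Atp5e (421 nt) and Ndufs6 (568 nt), with the widest gaps between the lines, have short transcripts. Other short transcripts differed little and were not called, among them Uqcrq (405 nt, 0.095), Ndufa1 (419 nt, -0.031) and Atp5g1 (596 nt, 0.016). The part of length in these differences was not tested.

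**Figure D4:**
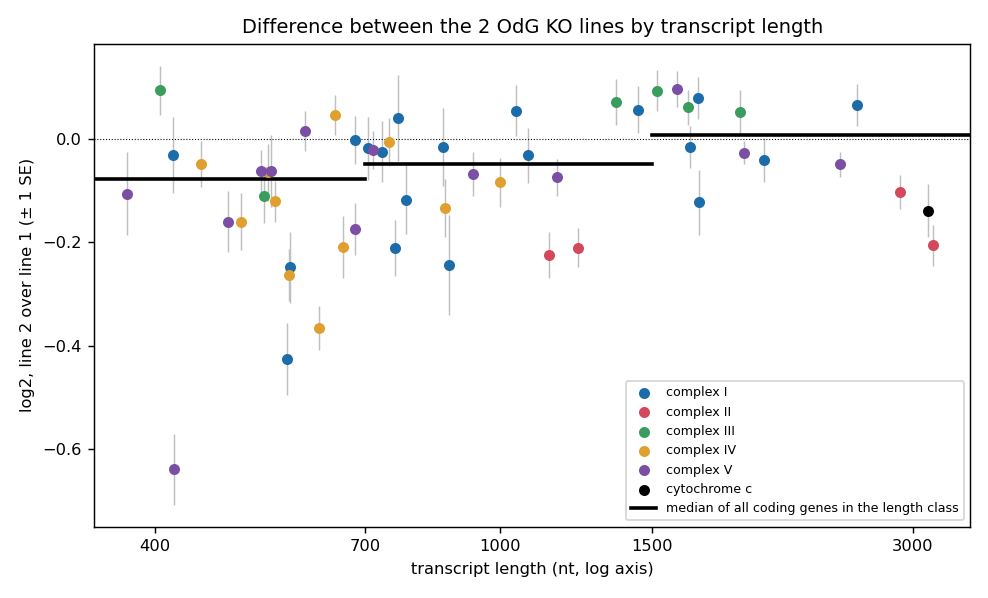
Line 2 over line 1 (log2, ± 1 standard error) of each subunit gene against its transcript length in nt on a log axis, coloured by complex, with black bars at the median of all coding genes of each length class. Most points under 700 nt lie below 0, as does the bar for that class (-0.077), and the complex II points lie below 0 at lengths over 1100 nt.

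The OdG and EG1 effects were compared by an interaction over all 12 libraries (mean of the OdG lines minus OdG WT, minus the EG1 difference, on the log2 scale). Of 54 genes 17 had a more positive OdG effect and 3 a more negative one, against 20.2% and 19.5% of 14977 genes tested. Without OdG WT replicate 1 the numbers were 10 and 3, and without OdG WT replicate 2 19 and 1. Without EG1 WT replicate 2 the number more negative was also 1. Complex I supplied 7 of the more positive genes, complex V 4 and complex III 3. Atp5g1 differed most (log2 0.53 ± 0.068, adjusted p = 2.7e-07), followed by Uqcrq (0.41 ± 0.07, adjusted p = 2e-05) and Cycs (0.35 ± 0.061, adjusted p = 3.1e-05). Sdhc (-0.25 ± 0.052, adjusted p = 0.00028), Cox6a1 (-0.19 ± 0.06, adjusted p = 0.014) and Cox8a (-0.16 ± 0.052, adjusted p = 0.013) were the more negative genes. For Atp5g1, Uqcrq and Cycs, the OdG WT libraries lay below all EG1 libraries in CPM, but the tables were scaled separately and their levels were not tested against each other.

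Some isoform genes used in particular tissues or under low oxygen had far wider fold changes than the 54 genes. The list of 10 genes also held Cox7a2l, which stood at 109 to 143 CPM over the 12 libraries. In OdG 7 of the 10 passed the filter. Of these, 1 rose and 4 fell in line 1, and 2 rose and 3 fell in line 2. In EG1 6 passed, of which 0 rose and 2 fell. All genes tested had 26.8% called higher and 26.1% lower in line 1, and 30% and 29.8% in line 2. In EG1 KO those shares were 3.6% and 4.06%. The line 2 share of the list called higher (28.6%) was near that of all genes. Ndufa4l2, a relative of Ndufa4 induced by low oxygen, held 22.99 and 23.2 CPM in OdG WT, 1.90 and 0.888 in line 1 and 2.74 and 3.03 in line 2 (log2 -4.00 ± 0.18, adjusted p = 9.9e-12 and -2.99 ± 0.16, adjusted p = 3.9e-11). In EG1 it held 11.5, 10.2 and 10.6 CPM in WT and 6.72, 4.94 and 5.03 in KO and also fell (-0.95 ± 0.12, adjusted p = 1.6e-06). In each table the KO values were all below the WT values. Cox4i2, the low-oxygen form of Cox4i1, was near the detection limit with 49 and 57 counts in WT, 10 and 11 in line 1 and 9 and 11 in line 2, and fell in each line (-2.32 ± 0.32, adjusted p = 8.7e-06 and -2.40 ± 0.32, adjusted p = 5.1e-06). In EG1, with 12 to 16 counts in WT and 5 to 9 in KO, it did not pass (-0.98 ± 0.42, adjusted p = 0.16).

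Cyct, the testis form of cytochrome c, went in opposite directions in the OdG lines. It held 15.1 and 15.9 CPM in WT, 10.8 and 10.5 in line 1 and 32.1 and 33.3 in line 2 (log2 -0.54 ± 0.1, adjusted p = 0.00022 and 1.08 ± 0.085, adjusted p = 7e-09), with no overlap between the 3 groups. In EG1 it fell from 19.8, 18.5 and 21.5 to 13.3, 16.97 and 13.98 CPM (-0.44 ± 0.089, adjusted p = 0.0012). Cox7b2 had 0 counts in both OdG WT libraries, 10 and 6 in line 1 and 29 and 32 in line 2. Set against a floor of 3 counts over the WT group, it was at least 5.33-fold higher in line 1 and at least 20.3-fold higher in line 2. EG1 WT held 8, 8 and 11 counts of it and EG1 KO 4, 17 and 11. Cox6b2 fell in line 2 (-0.24 ± 0.086, adjusted p = 0.023), and Cox7a2l, linked to supercomplexes, fell in line 1 (-0.15 ± 0.043, adjusted p = 0.0088). Cox7a1 was at -0.36 and -0.28 and did not pass.

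The other genes of the pathway were taken from fixed lists. For comparison, 26.8% of all genes tested were called higher and 26.1% lower in line 1, and 30% and 29.8% in line 2. Of 24 further subunit genes 23 were tested. In line 1, 13 rose and 3 fell of 23, and in line 2, 10 rose and 5 fell of 23 (medians 0.19 and 0.12). Ndufv3, an accessory subunit of the N module, fell in line 1 and in line 2 (-0.66 ± 0.069, adjusted p = 3.7e-07 and -0.59 ± 0.068, adjusted p = 8.8e-07). Ndufb11, of the membrane arm, was at -0.049 in line 1 without passing and fell in line 2 (-0.34 ± 0.048, adjusted p = 8.3e-06), while Ndufb6, of the same arm, rose in line 1 (0.45 ± 0.066, adjusted p = 1.9e-05) and in line 2 (0.26 ± 0.068, adjusted p = 0.0034). Assembly factors of complex I showed 5 higher and 0 lower of 13 in line 1 and 7 and 2 in line 2. Ndufaf2 and Ndufaf4 rose, by 0.51 and 0.56 in line 1 and 0.66 and 0.49 in line 2, all called. Acad9, an assembly factor and acyl-CoA dehydrogenase, rose in line 1 (0.19 ± 0.045, adjusted p = 0.0022) and fell in line 2 (-0.20 ± 0.047, adjusted p = 0.0013). For complexes II to V, 11 of 32 assembly factors rose and 2 fell in line 1, and 4 rose and 6 fell in line 2. The line 1 shares were 34.4% called higher and 6.25% called lower. In line 2 they were 12.5% and 18.8%, both below those of all genes tested. Surf1, an assembly factor of complex IV, was at 0.012 ± 0.092, adjusted p = 0.93 in line 1 and fell in line 2 (-1.05 ± 0.1, adjusted p = 1.2e-07). Cox20, another, fell in line 1 (-0.26 ± 0.065) and in line 2 (-0.72 ± 0.068). Coa5, also for complex IV, rose in line 1 (0.13 ± 0.04, adjusted p = 0.01) and fell in line 2 (-0.23 ± 0.041, adjusted p = 8.9e-05).

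Genes for the mitochondrial ribosome, which makes the subunits encoded in mitochondrial DNA, showed the highest share called higher among the 9 lists plotted in line 1 and in line 2. In line 1, 61 rose and 1 fell of 77, and in line 2, 49 rose and 2 fell of 77. In EG1 KO 2 rose and 0 fell of 77. Medians were 0.31, 0.24 and 0.038. Of all genes tested, 26.8% were called higher in line 1, 30% in line 2 and 3.6% in EG1 KO. Those called lower were 26.1%, 29.8% and 4.06%. Mrpl20 (0.84 and 0.81), Mrps24 (0.68 and 0.95) and Mrpl15 (0.46 and 0.50) were among those that rose in line 1 and line 2. For upkeep and transcription of mitochondrial DNA, 8 of 12 genes rose in line 1 and 0 fell, and in line 2 4 rose and 1 fell. The line 2 share called higher (33.3%) was near that of all genes tested. Polrmt, the mitochondrial RNA polymerase gene, showed 0.44 and 0.62, both called. Peo1, the helicase gene, showed 0.45 and 0.55, and Lrpprc, for a protein that stabilises mitochondrial mRNA, 0.26 and 0.33, all called. Among 10 regulators of mitochondrial genes tested, 7 rose and 2 fell in line 1 and 6 rose and 1 fell in line 2. Nrf1, a factor known to bind promoters of respiratory genes, rose in line 1 (0.52 ± 0.052, adjusted p = 2.3e-07) and in line 2 (0.54 ± 0.052, adjusted p = 8.9e-08). Pprc1, a coactivator that works with it, rose in line 1 (0.58), in line 2 (0.62) and in EG1 KO (0.13 ± 0.035, adjusted p = 0.016). Myc, a growth regulator, rose in line 1 (1.20 ± 0.11, adjusted p = 4.6e-08) and was at -0.065 ± 0.12, adjusted p = 0.66 in line 2.

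In the citric acid cycle and pyruvate dehydrogenase list, 9 rose and 6 fell of 22 in line 1 and 10 rose and 6 fell of 22 in line 2. The share called lower, 27.3% in each line, was near the 26.1% and 29.8% of all genes tested. The shares called higher were 40.9% and 45.5%, against 26.8% and 30% of all genes. The kinase gene Pdk1, whose product shuts off pyruvate dehydrogenase, fell in line 1 (-1.58 ± 0.045, adjusted p = 1.8e-14), in line 2 (-0.90 ± 0.042, adjusted p = 8e-12) and in EG1 KO (-0.32 ± 0.055, adjusted p = 0.00015). Mdh2, for mitochondrial malate dehydrogenase, showed 0.33 and 0.40 in the OdG lines, both called. Suclg2, for a succinyl-CoA ligase subunit, was at -0.054 in line 1 without passing and rose in line 2 (0.75 ± 0.062, adjusted p = 1.4e-08). Among 11 membrane carriers, 6 rose and 1 fell in line 1 and 5 rose and 2 fell in line 2. Carriers called higher made up 54.5% and 45.5%, and those called lower 9.09% and 18.2%, beside the same shares of all genes. The ADP/ATP carrier gene Slc25a5 and the phosphate carrier gene Slc25a3, which feed ATP synthase, showed 0.46 and 0.25 in line 1 and 0.38 and 0.37 in line 2, all called. The citrate carrier gene Slc25a1 fell in line 1 (-0.59), in line 2 (-0.82) and in EG1 KO (-0.17 ± 0.042, adjusted p = 0.0097).

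**Figure D5:**
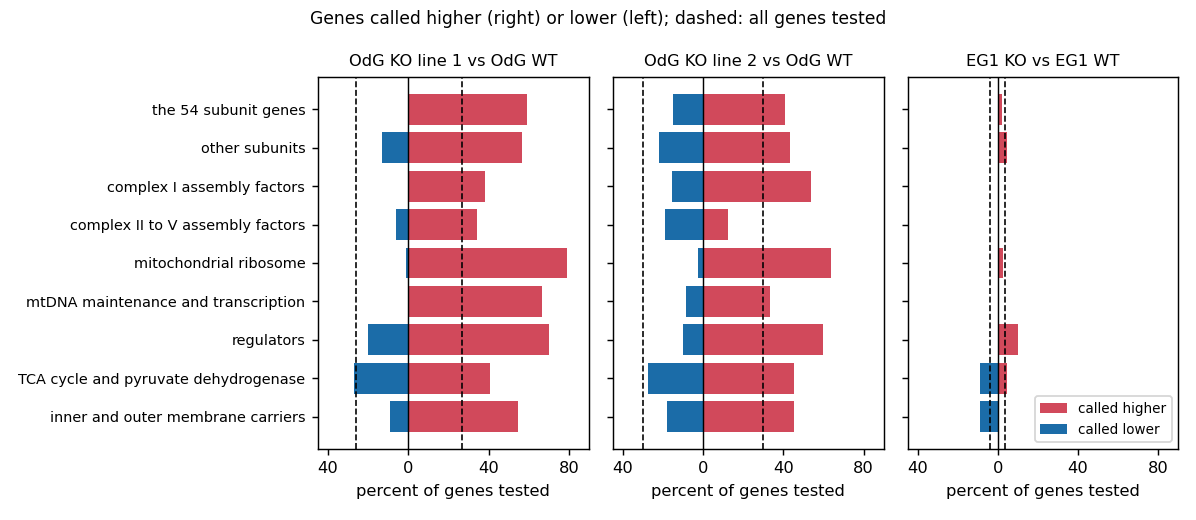
Percent of the genes tested that were called higher (red, to the right) or lower (blue, to the left) in each KO line, for the 54 subunit genes and 8 further lists, with dashed lines at the percent of all genes called in that direction. In line 1 the bar of the mitochondrial ribosome reaches 79.2% and that of the subunit genes 59.3%, against a dashed line at 26.8%.

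Promoters were read from RefSeq sequences of GRCm38.p6 (mm10), from 250 bases before to 50 after the gene start, which matched 42 of the 54 genes by symbol. The other 12 were Ndufa2, Ndufs1, Ndufb9, Sdhc, Uqcrc2, Uqcrb, Uqcrq, Cyc1, Cox4i1, Cox6c, Atp5a1 and Atp5f1. On either strand, the NRF1 motif (GCGC, any base, then TGCGC) was found in 12 of 42 (28.6%), against 5.19% of 27025 genes with promoters of the same length. The ETS motif CCGGAAG, bound by GABP, was found in 12 (28.6% against 9.93%), and the YY1 motif AAGATGGCG in 5 (11.9% against 1.64%). The box CCAAT was found in 17 (40.5% against 41.1%), and the ERR motif TCAAGGTCA in 2 (4.76% against 0.466%). None of these motifs contains another, and a gene was counted once however many matches it had. Of the 12 genes with the NRF1 motif 8 rose in line 1 and 4 in line 2, and of the 30 without it 17 and 14. Short stretches around the motif are shown for 3 genes that moved differently: Atp5k rose in line 1 and in line 2, Ndufs6 rose in line 1, and Cox6a1 fell in line 2 and has 2 matches. Each is written 5′ to 3′ on the minus strand, which is the strand of the gene, with the motif in capitals. In the second Cox6a1 stretch the motif is read on the other strand, so the capitals show its reverse complement.
Atp5k, chr5:108434430-108434459: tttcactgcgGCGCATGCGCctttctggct
Ndufs6, chr13:73328483-73328508: cgactgctgtGCGCCTGCGCcggcac
Cox6a1, chr5:115349101-115349130: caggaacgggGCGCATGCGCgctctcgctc
Cox6a1, chr5:115349056-115349085: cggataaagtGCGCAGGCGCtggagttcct
The motif was present in genes called higher, in genes called lower and in genes with no call, and a match describes letters only.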

How the data were processed

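The 12 libraries were made from total RNA taken with Trizol, with the NEBNext Ultra kit, per the labels' protocols. They were read here from 2 tables, 1 for each parental line, of whole-number read counts per gene symbol that the authors deposited. The submitters' processing notes list mm10 as build and, among tools, featureCounts 1.6.4, HISAT2 2.1.0, CASAVA and DESeq2. For the annotation, strand setting and multi-mapped reads, nothing is stated in the sources used here. Of the table columns 0 were left unmatched to a sample. Genes with low counts were removed (filterByExpr), libraries were scaled by TMM, and edgeR 4.0.16 (R 4.3.3) quasi-likelihood tests with 1 mean per group were adjusted by Benjamini-Hochberg over all genes, with 0.05 as threshold. The OdG fit held 6 libraries, the EG1 fit 6 and the interaction 12. The test script was checked on simulated counts. CPM were scaled within each table. Transcript lengths and loci came from GENCODE vM21 (GRCm38, equal to mm10), using the shortest principal transcript. Replicates were compared as log2(CPM + 0.5). At these depths 1 CPM is 15.8 to 19.8 counts. Values per library are given for the called genes with the largest rise and fall of each complex in each comparison with WT, for Atp5g1, Atp5g3 and Cycs, and outside the 54 genes for Etl4 and the restricted isoforms; up to 3 genes of each other list are named by smallest adjusted p. The 54 genes and the lists were chosen with earlier results of these data known. Alternatives were DESeq2 1.42.0, other scalings, no filter, a replicate block, other sets of libraries and leaving out each library.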

Additional observations from a re-analysis of the deposited data

Results flagged for a closer look

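For 20 subunit genes the KO effect differed between the parental lines by the interaction over 12 libraries at an adjusted p under 0.05 (edgeR, Benjamini-Hochberg). As the OdG effect minus the EG1 effect on the log2 scale, these were Sdhc at -0.25, Cox6a1 at -0.19, Cox8a at -0.16, Uqcrc1 at 0.13, Atp5o at 0.15, Cyc1 at 0.17, Ndufs1 at 0.18, Cox5a at 0.19, Sdhb at 0.19, Ndufs8 at 0.21, Ndufb5 at 0.22, Ndufv1 at 0.22, Atp5l at 0.27, Ndufv2 at 0.27, Atp5g3 at 0.28, Ndufb10 at 0.34, Ndufa1 at 0.35, Cycs at 0.35, Uqcrq at 0.41 and Atp5g1 at 0.53. All of them rest on the 2 OdG WT libraries, and 9 of the 20 held in every alternative analysis.

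For 17 subunit genes line 2 differed from line 1, so that their KO effects against the shared WT differed by the same amount. As line 2 minus line 1 on the log2 scale, these were Atp5e at -0.64, Ndufs6 at -0.43, Cox6b1 at -0.37, Cox6a1 at -0.26, Ndufa2 at -0.25, Sdhb at -0.22, Ndufs7 at -0.21, Sdhd at -0.21, Cox7a2 at -0.21, Sdhc at -0.21, Atp5j at -0.17, Cox6c at -0.16, Atp5h at -0.16, Cycs at -0.14, Cox8a at -0.12, Sdha at -0.10 and Atp5f1 at 0.098. Of the 17, 7 held in every alternative analysis: Atp5e, Cox6a1, Cox6b1, Ndufs6, Sdhb, Sdhc and Sdhd.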

How the results depend on the processing

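The call held in every alternative for 22 of 32 genes in line 1, 17 of 30 in line 2, 7 of 17 between the lines, 9 of 20 in the interaction and 0 of 1 in EG1, and no called gene reversed. Of 1519 such values 1315 stayed past the threshold and 204 did not. DESeq2 gave 26 higher and 0 lower in line 1, 16 higher and 6 lower in line 2, 0 higher and 9 lower between the lines and 15 higher and 3 lower in the interaction. Scaled by the upper quartile, line 1 had 25 higher and 1 lower, with medians of 0.12, -0.0384, 0.0954, -0.0086 and 0.12 for complexes I to V, and line 2 had 18 higher and 8 lower. By totals line 1 had 25 higher and 1 lower, and EG1 had 0 higher. Between the lines, upper-quartile scaling gave 5 higher and 11 lower, with medians of 0.01 for complex I, -0.17 for II, 0.10 for III, -0.0858 for IV and -0.0281 for V. Totals gave 5 higher and 11 lower, with medians of 0.0079, -0.18, 0.099, -0.0878 and -0.03. That comparison had 0 higher and 17 lower in a fit over all 12 libraries and 3 higher and 22 lower with only its own groups. Taking line 1 alone, the interaction gave 18 higher and 1 lower and a complex II median of 0.0129; line 2 alone gave 15 higher and 5 lower, with -0.15 for II and -0.0559 for IV. Leaving out each library in turn gave 24 to 43 higher and 0 to 1 lower in line 1, 15 to 31 and 5 to 11 in line 2, 0 to 3 and 8 to 22 between the lines, 0 to 2 and 0 to 1 in EG1, and 10 to 19 and 1 to 4 in the interaction. The medians then ranged in line 1 over 0.18 to 0.27 for complex I, -0.0275 to 0.14 for IV and 0.12 to 0.25 for V. In line 2 they ranged over 0.0666 to 0.19 for I, -0.16 to 0.0312 for IV and 0.0765 to 0.16 for V, between the lines over -0.13 to -0.0866 for IV, in EG1 over -0.026 to 0.0444 for IV, and in the interaction over 0.071 to 0.22 for I, -0.0687 to 0.0936 for IV and 0.0612 to 0.14 for V. With the replicate block the counts were 31 higher and 0 lower in line 1, 21 higher and 8 lower in line 2, 1 higher and 16 lower between the lines, 1 higher and 0 lower in EG1 and 16 higher and 3 lower in the interaction. Same-numbered libraries did not deviate together over all genes (correlations of -0.025 to 0.022). With 2 libraries per OdG group both replicates give the same value, so this cannot show whether same-numbered libraries were prepared together. The cause of these changes was not tested.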
